A study of Rattus norvegicus with 16 samples.

Results

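The 2 arrays of the group labelled 2 h were set against the 3 arrays labelled naive, 5 of the 16 arrays in a study of rat dentate gyrus. The arrays were chosen by their labels, and no measured value entered the choice. Each array measured total RNA on the single-colour Affymetrix RGU34A array. The other 11 arrays carry the labels 0 h (2 arrays), 3 h (2), 6 h (3), 12 h (2) and 24 h (2). The labels of all 7 groups, naive included, describe the rats as trained in passive avoidance; naive is read here as without that training, and the event from which the hours count is not given. Strain, age, sex, the training protocol and the number of rats behind an array are not given either. Nothing states that replicates are separate animals, so the spread behind each p-value is that between these samples and could be technical.

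In passive avoidance a rat learns to hold back from a place or movement after it has met a mild punishment there. The dentate gyrus passes signals from the entorhinal cortex through its granule cells to the CA3 field of the hippocampus. In such neurons, calcium that enters during activity acts on calmodulin-dependent kinase II, a holoenzyme of alpha, beta, gamma and delta subunits, and on the phosphatase calcineurin, while G proteins pass receptor signals to adenylyl cyclase and protein kinase A. These routes reach transcription factors that bind cyclic AMP response elements, and immediate early genes such as Fos, Egr1 and Arc are among the first to be transcribed. The amounts given below are log2 of scaled intensity per probe set, and a difference is 2 h minus naive on that scale. A probe set is not compared in level with another one, because probe response differs.

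The promoters of 3 genes whose 2 h arrays lay above every naive array are shown, because a reader can see in them which activity-related motifs are present: Trh (thyrotropin-releasing hormone), Camk2b (the beta subunit of calmodulin-dependent kinase II) and Gnao1 (the alpha subunit of the G protein Go). Each runs 5′ to 3′ on the gene's strand, from RefSeq on build GRCr8, at chr4:126301713-126302012, chr14:85147895-85148194 and chr19:11198388-11198687, all on the minus strand. Capitals mark the cyclic AMP response element TGACGTCA, its half-site TGACG, the AP-1 site TGANTCA and the EGR site GCGNGGGCG, on either strand and counting overlaps.
Trh: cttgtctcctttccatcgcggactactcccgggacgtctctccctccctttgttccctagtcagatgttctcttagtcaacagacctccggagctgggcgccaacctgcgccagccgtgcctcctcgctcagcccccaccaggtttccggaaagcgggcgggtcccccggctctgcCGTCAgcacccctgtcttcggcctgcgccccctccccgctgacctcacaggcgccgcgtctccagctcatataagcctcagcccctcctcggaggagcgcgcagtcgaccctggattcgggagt
Camk2b: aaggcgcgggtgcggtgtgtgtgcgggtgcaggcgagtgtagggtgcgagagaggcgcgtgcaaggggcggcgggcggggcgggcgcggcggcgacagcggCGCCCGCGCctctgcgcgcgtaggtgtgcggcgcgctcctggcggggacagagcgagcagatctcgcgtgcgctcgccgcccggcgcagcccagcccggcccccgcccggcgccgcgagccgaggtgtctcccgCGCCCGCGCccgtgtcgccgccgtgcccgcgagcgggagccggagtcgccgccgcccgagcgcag
Gnao1: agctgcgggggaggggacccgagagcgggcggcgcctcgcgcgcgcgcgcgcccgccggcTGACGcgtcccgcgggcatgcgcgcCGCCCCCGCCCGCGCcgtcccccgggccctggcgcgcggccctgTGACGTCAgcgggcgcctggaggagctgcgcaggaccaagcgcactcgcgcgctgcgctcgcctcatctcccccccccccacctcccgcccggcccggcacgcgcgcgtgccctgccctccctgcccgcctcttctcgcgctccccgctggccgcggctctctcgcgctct
The Trh window held 1 half-site, read on the opposite strand, whose first base lies at position -74 from the annotated start. The Camk2b window held 2 EGR sites. The Gnao1 window held 1 full cyclic AMP response element, which contains a half-site on each strand, 1 further half-site and 2 overlapping EGR sites. Over 27457 promoters of the same length, the full element was present in 1.91%, the half-site in 22.0%, the AP-1 site in 7.33% and the EGR site in 5.29%. Of the 13 genes named for higher 2 h levels with a promoter in the table, 1 held the full element, 3 a half-site, 0 an AP-1 site and 3 an EGR site. Of the 11 named for lower levels, 0 held the full element, 5 a half-site, 1 an AP-1 site and 1 an EGR site. These matches describe the letters in the windows and are not binding sites.

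Before scaling, the trimmed mean intensity was 72.6 and 56.6 on the 2 h arrays, against 127, 113 and 142 on the naive arrays. Both 2 h arrays were thus dimmer than every naive array before the common scale was applied. For beta-actin, the control probe set at the 3′ end over that at the 5′ end, a measure that moves with RNA length, gave 1.96 and 2.69 at 2 h, against 1.70, 1.49 and 1.70 in naive arrays. For Gapdh the same ratio was 1.21 and 1.45 at 2 h, against 1.12, 1.25 and 1.28. The part of brightness and of these ratios in the results below was not tested. Over the 8740 non-control probe sets, before the filter, the 2 h arrays correlated at 0.964 and the naive pairs at 0.964 to 0.971. These correlations only describe arrays that share probes. Calb1, the calcium-binding protein calbindin that marks mature granule cells, was at 8.47 and 8.36 at 2 h, against 8.17, 8.42 and 8.73 in naive arrays. Of the 23 granule neuron markers listed, 7 were on the array and 6 were tested, with a median difference of 0.03. Their mean level was 0.16 and 0.06 above the naive mean on the 2 h arrays, inside the naive span of -0.12 to 0.19.

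Across the 6220 probe sets tested, 1 passed the adjusted threshold of 0.05 between 2 h and naive (0.0161%), in limma's moderated test with Benjamini-Hochberg adjustment. An unadjusted p under 0.05 in the same fit, called nominal below, was reached by 477 probe sets (7.67%), of which 224 were higher (3.6%) and 253 lower (4.07%) at 2 h. With arrays centred on their medians these became 124 higher and 342 lower. Both 2 h arrays lay above all naive arrays for 953 probe sets (15.3%) and below them for 726 (11.7%), or for 664 and 1011 with arrays centred on their medians. The probe set with the highest mean stands for each of 3678 genes in the gene lists that follow. Of those genes, 127 were nominally higher (3.45%) and 142 nominally lower (3.86%), while 535 lay wholly above the naive arrays (14.5%) and 413 below them (11.2%). Of the same genes 51.7% had a difference above 0 and 48.3% below, and the median difference was 0.01. A list is read against these shares, and no test of a list was made.

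**Figure D1:**
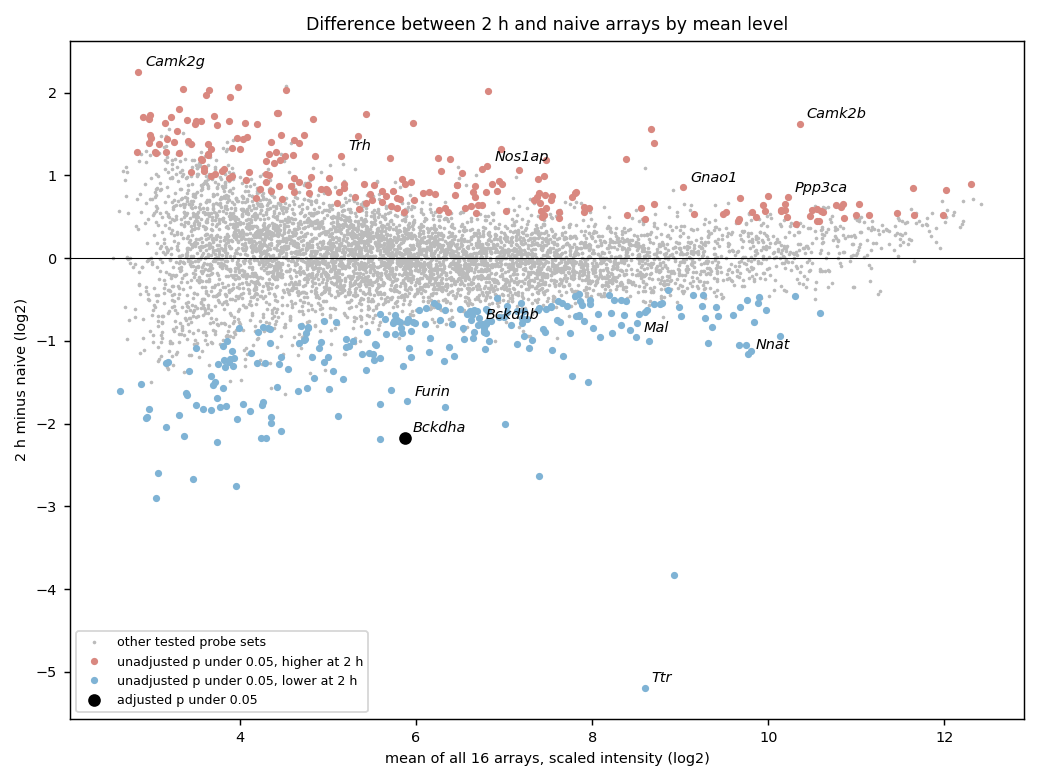
Each point is 1 of the 6220 probe sets tested; the horizontal axis is its mean over all 16 arrays (scaled intensity, log2) and the vertical axis the difference 2 h minus naive (log2). Red and blue points have an unadjusted p under 0.05, and the black point is Bckdha, at -2.17.

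Of 4 equal bins of probe sets by their mean over all 16 arrays, the lowest had a median difference of 0.14, with 292 probe sets above all naive arrays and 140 below them. The second bin had a median of 0.06, with 248 above and 150 below, and the third a median of -0.03, with 163 above and 217 below. The highest bin had a median of 0.0028, with 250 above and 219 below. Where the naive arrays are at the lowest allowed level of 2.34, the 2 h arrays can lie above them but not below, as for Gpr155 and Abcb1a. Where the 2 h arrays are at that level, they can lie below the naive arrays but not above. The part of this limit in the counts was not tested.

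Bckdha, the E1-alpha subunit of the dehydrogenase that commits branched-chain amino acids to breakdown in mitochondria, was the gene past the threshold. Its level was 3.39 and 4.81 on the 2 h arrays, against 6.53, 6.33 and 5.95 on the naive arrays. Both 2 h arrays lay below every naive array and below all 11 arrays of the other trained groups, whose range was 5.63 to 6.62. Bckdha fell by 2.17 on the log2 scale (SE 0.34, 4.50-fold; limma, adjusted p = 0.0457), with an SD of 1.01 between the 2 h arrays and 0.30 between the naive arrays. Without 2 h replicate 1 the difference was -1.46 with an adjusted p of 0.136, and the call was lost under 20 of 28 alternatives, whose differences all stayed below 0. A second probe set of Bckdha gave 5.49 and 4.61 at 2 h, against 6.00, 5.93 and 4.68 in naive arrays, with a difference of -0.49 and groups that overlap.

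The other genes of branched-chain amino acid catabolism were followed with a list of 15 tested genes. Counting Bckdha, 10 lay below 0 and 5 above, and the list median was -0.08, against 0.01 over all genes. Nominally lower were 4 and nominally higher 0 (3.86% and 3.45% over all genes). Bckdhb, the E1-beta partner of Bckdha, was at 6.10 and 5.91 at 2 h, against 6.50, 6.96 and 6.96 in naive arrays, a difference of -0.80 (SE 0.24). Acat1, the mitochondrial thiolase that finishes isoleucine breakdown, differed by -0.50, and a second probe set of it by -0.72. Its remaining probe set gave 0.28. Bcat1, the cytosolic transaminase that starts the pathway, was at 7.78 and 8.20 at 2 h, against 8.74, 8.43 and 9.15 in naive arrays. On the probe sets with negative differences just given, both 2 h arrays lay below the naive range. The same held for Echs1, the enoyl-CoA hydratase, at -0.47, and for Bckdk, the kinase that inactivates the dehydrogenase, at -0.92 (SE 0.67) with 1 of the 2 h arrays at the lowest allowed level, which makes 6 of 15 genes (11.2% over all genes). Of the remaining enzymes, Ivd differed by -0.04, Hibadh by -0.01, Pcca by 0.15 and Hadha by 0.17.

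**Figure D2:**
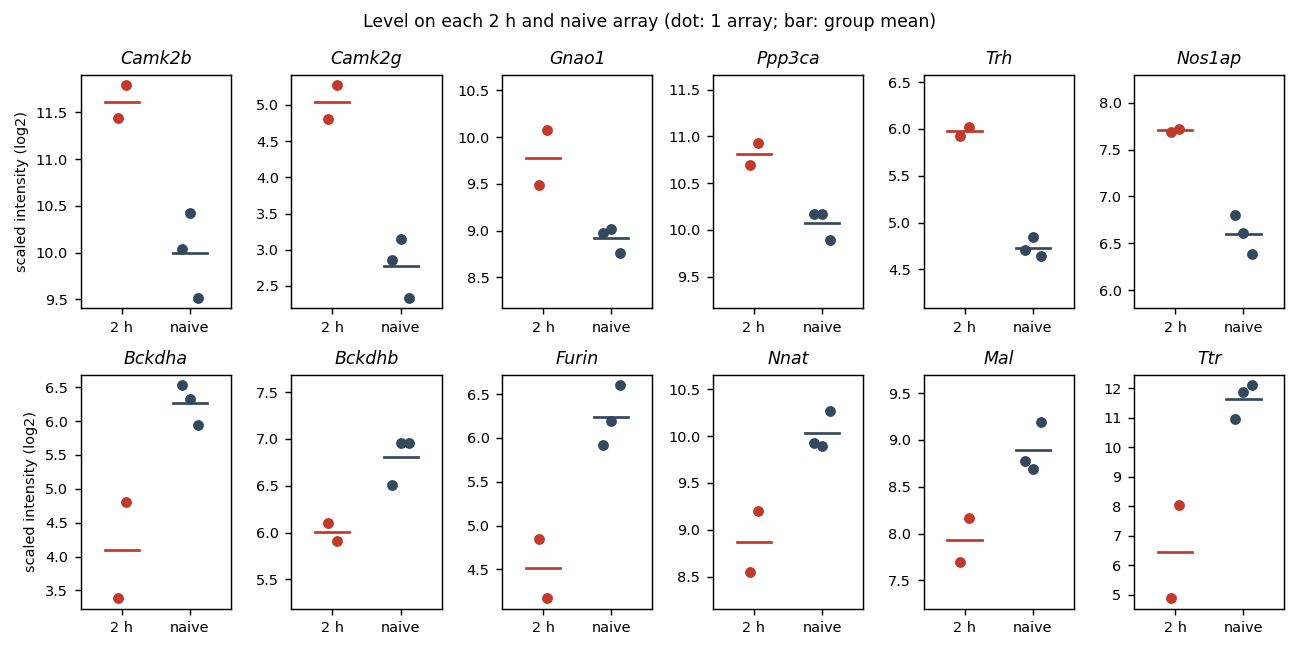
Level (scaled intensity, log2) of 12 genes on each of the 2 h arrays (red, left) and naive arrays (dark, right); each dot is 1 array and each bar a group mean, and every panel has its own axis. The upper 6 genes lie above all naive arrays on both 2 h arrays and the lower 6 below them, from Nos1ap at 7.69 and 7.72 against 6.38 to 6.80 to Ttr at 4.88 and 8.03 against 10.96 to 12.10.

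The beta and gamma subunits of calmodulin-dependent kinase II, Camk2b and Camk2g, stood higher at 2 h on every tested probe set, without passing the adjusted threshold. Both were named by their small p, and the alpha and delta subunits are not described here. Camk2b was at 11.44 and 11.79 on the 2 h arrays, against 10.04, 10.42 and 9.52 on the naive arrays, a difference of 1.62 (SE 0.38, adjusted p = 0.236 in limma). Its second probe set had 10.05 and 10.19 at 2 h, against 9.15, 9.10 and 7.93, a difference of 1.39. On both probe sets the lower 2 h array was above the highest naive array. For Camk2g, the gamma subunit, 3 probe sets differed by 2.26, 1.07 and 0.50. The first of them was at 4.80 and 5.27 at 2 h, against 2.85, 3.15 and 2.34 in naive arrays, the last value being the lowest allowed level. Testing required an intensity over 16.9 on 2 arrays, and only the 2 h arrays of this probe set reached it. It was thus tested only because it is high at 2 h. The middle one was at 7.94 and 8.06 at 2 h, against 7.23, 7.35 and 6.22. The 2 h arrays lay above the naive range on all 3 probe sets of Camk2g.

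Calcineurin and 2 G protein genes also had 2 h arrays above the naive range, while protein kinase A and an inhibitory G protein had them below it. Ppp3ca, the catalytic subunit of calcineurin, was at 10.69 and 10.93 at 2 h, against 10.17, 10.17 and 9.89 in naive arrays. Gnao1, whose protein is the most abundant G protein alpha subunit of brain, had 9.49 and 10.07 at 2 h, against 8.97, 9.02 and 8.76, a difference of 0.86 (SE 0.21, adjusted p = 0.236 in limma), and its second probe set differed by 0.74. Gnas, the stimulatory alpha subunit, differed by 0.53 (by 0.03 to 0.40 on its 3 other probe sets) and Adcy3, an adenylyl cyclase, by 0.80. Prkaca, the alpha catalytic subunit of protein kinase A, was at 7.36 and 7.47 at 2 h, against 8.16, 8.16 and 8.63 in naive arrays, a difference of -0.90, against -0.25 on its second probe set. Prkacb, its beta counterpart, differed by -0.51, and Gnai1, an inhibitory alpha subunit, by -1.18. On the first probe set given, the groups do not overlap for any of these 7 genes. Of the 48 genes tested in the list for calcium, cyclic AMP and MAP kinase signalling, 6 were nominally higher (Camk2b, Camk2g, Gnao1, Ppp3ca, Adcy3 and Gnas) and 3 nominally lower, with a median of 0.04. Over all genes these shares were 3.45% and 3.86%. In the list, 8 of 48 genes lay above all naive arrays and 5 below them, against 14.5% and 11.2% over all genes. Outside the lists, Nos1ap, an adaptor that binds neuronal nitric oxide synthase, was at 7.69 and 7.72 at 2 h, against 6.80, 6.61 and 6.38, a difference of 1.11 (SE 0.25).

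Gria1, the GluA1 subunit of AMPA receptors, was measured by 3 probe sets, which differed by 0.71, 0.90 and 0.54, and on each of them both 2 h arrays were above all naive arrays. The first had 8.40 and 8.55 at 2 h, against 7.54, 8.03 and 7.72. Shank1, a scaffold of the postsynaptic density, was at 3.90 and 3.16 at 2 h, against 5.36, 4.63 and 4.63, and Shank2 differed by -1.25 with 1 of the 2 h arrays at the lowest allowed level. In the list of 33 glutamate receptor and scaffold genes these were the 1 nominally higher and 2 nominally lower, and the median was 0.02. Of 29 voltage-gated channel genes, 3 were nominally higher and 0 lower (3.45% and 3.86% over all genes). The 3 encode sodium channel alpha subunits: Scn3a (0.88), Scn9a (1.01) and Scn2a (0.55). The median of that list was 0.02, and it was 0.29 without 2 h replicate 2 and 0.21 with array weights. Scn3a had 7.04 and 7.14 at 2 h, against 6.23, 6.11 and 6.29. Gabrb1 and Gabrg1, subunits of GABA-A receptors, differed by 0.57 and 0.77, in a list of 20 genes with a median of -0.01.

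Genes of the presynaptic terminal pointed both ways. Cplx2, a complexin that clamps and promotes vesicle fusion, was at 7.36 and 7.78 at 2 h, against 6.69, 6.57 and 5.85, a difference of 1.20. Syt4, a synaptotagmin of dense-core vesicles, differed by 1.08, and Napa, the alpha-SNAP that helps take fused SNARE complexes apart, by 0.56. Syn1, the vesicle-tethering synapsin I, was at 8.48 and 8.38 at 2 h, against 8.89, 8.85 and 9.20. The list of 42 release genes had 21 above and 21 below 0 and a median of -0.02. Nominally higher were 3 and nominally lower 1 (3.45% and 3.86% over all genes). Among 51 adhesion and matrix genes, Tnr, the tenascin of perineuronal nets, differed by 1.18 and Itgb1, the beta-1 integrin, by -0.78.

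Fos, Egr1 and Arc did not pass the test, and probe sets of a gene disagreed. Fos was at 7.03 and 6.56 at 2 h, against 6.61, 6.70 and 6.44, a difference of 0.21 (SE 0.25). Its second probe set was at 5.20 and 5.08 at 2 h, against 3.15, 4.51 and 4.24, a difference of 1.18 with groups that do not overlap. Egr1 was at 8.88 and 8.67 at 2 h, against 8.77, 8.41 and 8.98, a difference of 0.06 (SE 0.30), and its 3 other probe sets gave -0.98, 0.59 and -0.16. Arc differed by 0.11 (SE 0.21), Homer1 by 0.02 (by -0.06 to 1.04 on its 5 other probe sets), Junb by -0.04 and Nr4a1 by 0.26. On the probe sets used for the list the 2 h and naive arrays of these 6 genes overlap, and the differences of Fos, Egr1 and Arc fell on the other side of 0 under some of the alternatives given at the end. Of 35 genes tested in this list, 22 lay above 0, and the median was 0.07, or -0.02 when arrays were centred on their medians. Nominally higher were 4 and nominally lower 1 (3.45% and 3.86% over all genes). The 4 were Dusp6 (0.89), a phosphatase that inactivates ERK, Atf3 (0.81), a stress-inducible transcription factor, Nr4a3 (0.80), an orphan nuclear receptor, and Btg1 (0.53), an antiproliferative factor. Dusp6 had 7.06 and 7.40 at 2 h, against 6.15, 6.39 and 6.47, and Nr4a3 had 7.30 and 7.61 against 6.30, 7.10 and 6.57. In both genes the 2 h arrays lay above the naive range.

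Corticosteroid receptors and their target Sgk1 differed in sign. Nr3c2, the mineralocorticoid receptor, was at 7.11 and 7.04 at 2 h, against 6.60, 6.29 and 6.51, a difference of 0.61. Nr3c1, the glucocorticoid receptor, was at 5.02 and 4.93 at 2 h, against 4.09, 4.30 and 4.39, a difference of 0.72, and a second probe set of Nr3c1 differed by -0.29 with groups that overlap. Sgk1, a kinase that glucocorticoids induce, was at 6.29 and 6.46 at 2 h, against 6.80, 7.11 and 7.27, a difference of -0.69. These were the 3 nominal genes of the 12 in the glucocorticoid list, whose median was 0.06. Over all genes, 3.45% were nominally higher and 3.86% lower.

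Among peptide precursors Trh stood out. It was at 5.92 and 6.02 on the 2 h arrays, against 4.71, 4.85 and 4.64 on the naive arrays, a difference of 1.24 (SE 0.28, adjusted p = 0.236 in limma). Each group spanned less than the gap between them. The second probe set of Trh was near the lowest allowed level and differed by -0.44. Of the 31 neuropeptide and trophic factor genes, 20 lay above 0, with a median of 0.14, or 0.02 under the stricter filter on dim probe sets. Nominally higher were 3 (Trh, Fgf9 at 0.78 and Oxt at 1.06) and nominally lower 0 (3.45% and 3.86% over all genes). Relative to the naive mean, the list median was 0.12 and 0.14 on the 2 h arrays and 0.17 on naive replicate 3. The list mean was 0.253 and 0.169 at 2 h and 0.174 on naive replicate 3. Bdnf, a neurotrophin of granule cells, differed by 0.38 (SE 0.37), Npy by -0.03 and Pdyn, the dynorphin precursor of granule cells, by -0.12.

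Proteases that cut secreted precursors gave mixed values. Furin, the convertase of the secretory pathway that is used in most cells, was at 4.85 and 4.17 at 2 h, against 5.92, 6.19 and 6.60, a difference of -1.73 (SE 0.34, adjusted p = 0.236 in limma). A second probe set of Furin gave 6.43 and 6.65 at 2 h, against 5.91, 6.07 and 6.75, a difference of 0.29, so the 2 measures of this gene disagree. Spint2, a membrane-bound inhibitor of serine proteases, was at 6.72 and 6.90 at 2 h, against 7.69, 8.83 and 8.18. In the list of 13 convertases and granins, which excludes no gene by direction, Chgb (chromogranin B, 0.58) and Cpd (carboxypeptidase D, 0.76) were nominally higher and Pcsk6 (the convertase PACE4, -0.80 and, on a second probe set, 0.13) nominally lower. The list median was 0.10, and over all genes 3.45% were nominally higher and 3.86% lower.

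Most cytosolic ribosomal protein genes had positive differences. Of 37 tested, 35 lay above 0 (94.6%, against 51.7% of all genes). Nominally higher were 13 and nominally lower 0 (3.45% and 3.86% over all genes). On 22 of the 37 both 2 h arrays were above every naive array (14.5% over all genes). Their median difference was 0.37, and it was 0.25 without 2 h replicate 2 and 0.52 without 2 h replicate 1. The mean over the list was 0.23 and 0.45 above the naive mean on the 2 h arrays, against 0.06, -0.02 and -0.03 on the naive arrays. Rps3 was at 11.27 and 11.12 at 2 h, against 10.39, 10.55 and 10.68, a difference of 0.66 (SE 0.19, adjusted p = 0.401 in limma). Rpl7a, at 10.14 and 10.19 against 9.57, 9.41 and 9.34, differed by 0.72, Rpl36 by 0.53 and Rplp0 by 0.45. The array with the higher beta-actin 3′/5′ ratio, 2 h replicate 2, was also the one with the higher ribosomal mean; its part in the result was not tested. Against the other trained groups the list median was 0.19. Of 21 translation factors, by contrast, 14 lay below 0 (48.3% over all genes) and 2 were nominally lower (3.86% over all genes). The 2 were Eif4ebp1, which represses cap-dependent initiation, and Eef1a2, the elongation factor of neurons and muscle. Eif4ebp1 differed by -0.94 on 1 probe set and by 0.37 and 0.04 on its other ones, and Eef1a2 by -0.59.

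**Figure D3:**
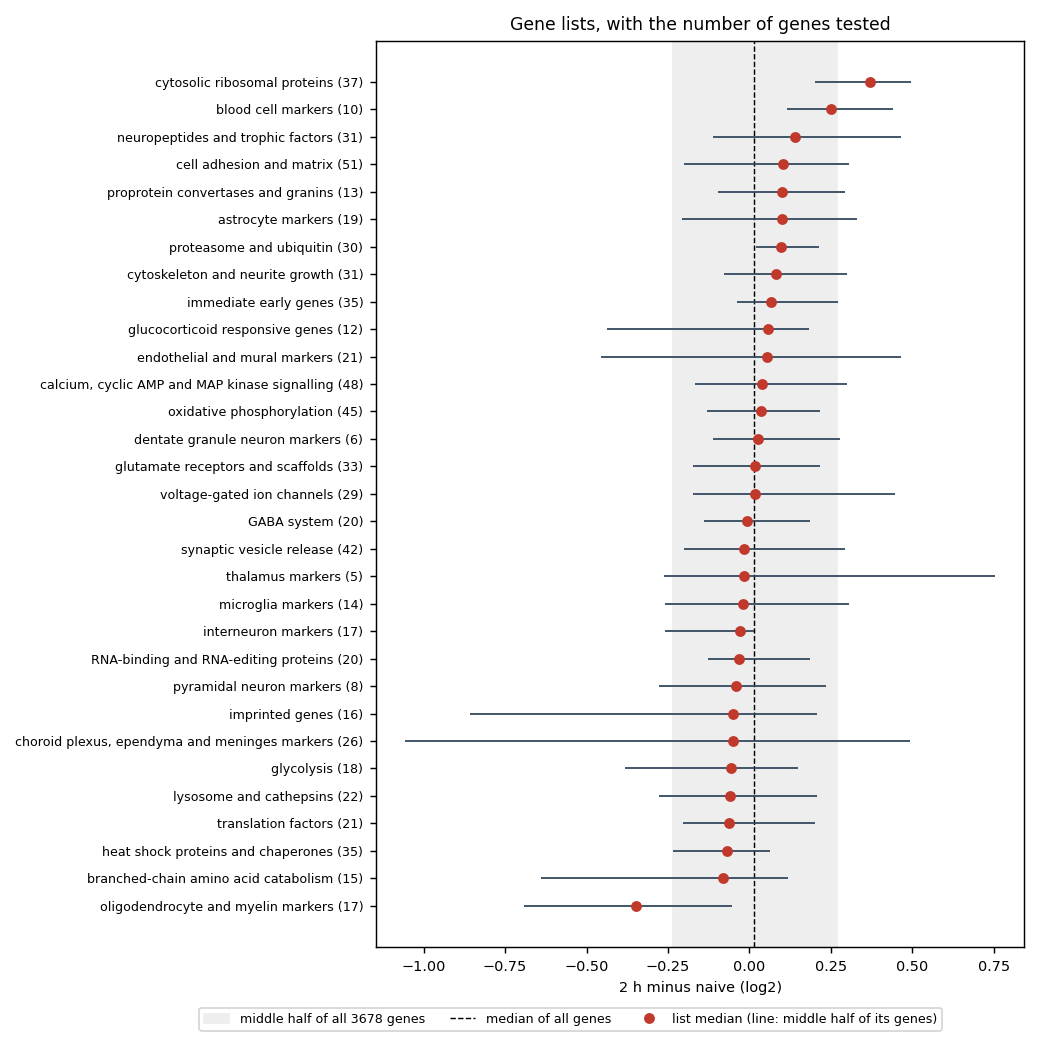
Median difference, 2 h minus naive (log2), of each of 31 gene lists (dot) with the middle 50% of its genes (line); the number of genes tested is in brackets, the grey band is the middle 50% of all 3678 genes and the dashed line their median. Ribosomal proteins lie at 0.37 and oligodendrocyte markers at -0.35, and most other lists have their median inside the grey band.

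Most markers of oligodendrocytes, the cells that make myelin, had negative differences. Of 17 tested, 14 lay below 0, and 5 were nominally lower and 0 higher (3.86% and 3.45% over all genes). The median was -0.35, which became -0.20 without 2 h replicate 1 and -0.50 without naive replicate 2. The mean over the list was -0.56 and -0.15 on the 2 h arrays relative to the naive mean, against 0.01, -0.17 and 0.16 on the naive arrays, so 2 h replicate 1 was below all naive arrays and replicate 2 within their span. Mal, a proteolipid of myelin, was at 7.70 and 8.17 at 2 h, against 8.77, 8.69 and 9.20, a difference of -0.96 (SE 0.23). Pllp (plasmolipin), Ugt8, which makes galactocerebroside, Sox10, the lineage transcription factor, and Mog, a myelin surface glycoprotein, differed by -0.77, -0.69, -0.98 and -0.78. Mbp, the most familiar myelin gene, was at 10.95 and 11.49 at 2 h, against 11.13, 10.58 and 11.33, a difference of 0.21. Because the tissue is a mixture, fewer cells of a type and less RNA per cell cannot be told apart here.

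Choroid plexus markers held the most negative difference of all probe sets tested, that of Ttr at -5.19, and the naive arrays themselves were split. Ttr, the thyroxine carrier that choroid plexus epithelium secretes, was at 4.88 and 8.03 at 2 h, against 10.96, 11.88 and 12.10, and at 6.14 and 9.03, against 10.80, 11.48 and 11.94, on its second probe set. Enpp2, the enzyme autotaxin, was at 6.44 and 7.0 at 2 h, against 8.04, 10.10 and 9.91. Aqp1, the water channel of the same epithelium, was at the lowest allowed level of 2.34 on both 2 h arrays and on naive replicate 1, against 5.50 and 4.93 on the other naive arrays. Of 26 genes tested in the list, which also covers ependyma and meninges, 8 were nominally lower and 0 higher (3.86% and 3.45% over all genes), while the median was -0.05. Against the other trained groups the list median was 0.42, with 3 nominally higher and 0 lower. On its first probe set Ttr had group means of 8.77, 7.24, 10.66, 6.62 and 6.24 at 0, 3, 6, 12 and 24 h, against 6.45 at 2 h. Prlr, the prolactin receptor, differed by -2.17 and -2.67 on 2 probe sets and by 0.45 on another. The mean over the list was -0.94 and -0.08 on the 2 h arrays relative to the naive mean, against -0.86, 0.46 and 0.39 on the naive arrays. The summed intensity of the list was 1283 and 3775 at 2 h, against 3194 to 7646 in naive arrays. The list median was 0.22 without 2 h replicate 1 and -0.67 without 2 h replicate 2, and it was -0.96 under the stricter filter on dim probe sets.

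**Figure D4:**
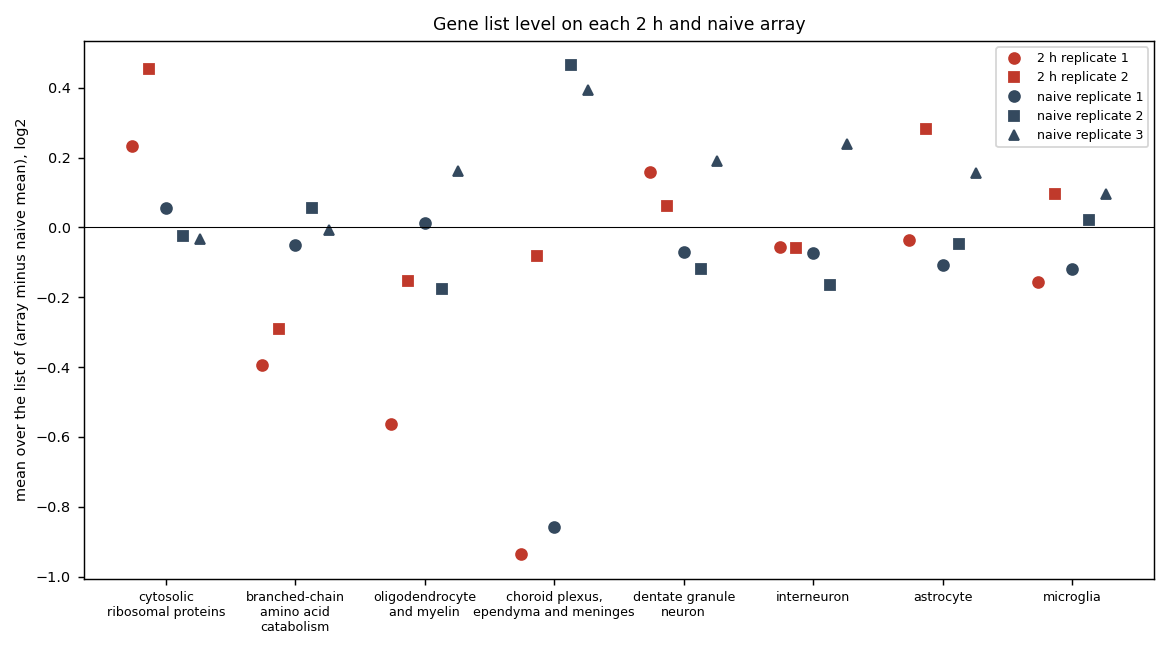
Mean level of 8 gene lists on each 2 h array (red) and naive array (dark), as the difference from the mean of the naive arrays (log2); each symbol is 1 array. Ribosomal proteins lie above all naive arrays on both 2 h arrays (0.23 and 0.45), branched-chain amino acid catabolism below them (-0.39 and -0.29), and choroid plexus markers are as low on naive replicate 1 (-0.86) as on 2 h replicate 1 (-0.94). The mean for branched-chain amino acid catabolism includes Bckdha. Its list median is -0.11 and -0.12 on the 2 h arrays, against -0.03, 0.11 and -0.06 on the naive arrays.

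The medians of other cell type lists were -0.03 for interneuron, -0.02 for microglia, 0.06 for endothelial and mural, 0.10 for astrocyte and 0.25 for blood cell markers. The astrocyte median was 0.41 without 2 h replicate 1. Of 10 blood cell markers tested, 8 lay above 0 (51.7% over all genes) and 1 was nominally higher (3.45% over all genes). Their mean relative to the naive mean was 0.26 and 0.58 on the 2 h arrays, against -0.28, 0.17 and 0.11 on the naive arrays. The part of blood cells in the other results was not tested. Slc4a4, the sodium bicarbonate cotransporter of astrocytes, was at 6.54 and 7.59 at 2 h, against 5.50, 5.83 and 5.43, and Fabp7, a fatty acid binding protein of radial glia and astrocytes, differed by -0.70. Pdgfrb, the growth factor receptor of pericytes, was at 2.50 and 2.57 at 2 h, against 4.32, 4.30 and 4.36. Abcb1a, a drug efflux pump of brain capillaries, was at 4.22 and 3.88 at 2 h while all 3 naive arrays were at the lowest allowed level. Its difference of 1.71 therefore depends on that level: it was 0.77 with the floor at the 30th percentile and 2.28 at the 10th. Neurod2, a transcription factor of maturing granule and pyramidal neurons, was at 6.56 and 6.65 at 2 h, against 5.72, 5.59 and 6.30.

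Several further genes were named by the smallest p with groups that do not overlap. Plagl1 and Aldoa, given beside them, were named as members of gene lists. Nnat, neuronatin, an imprinted gene of developing and adult neurons, was at 8.55 and 9.20 at 2 h, against 9.93, 9.90 and 10.26, a difference of -1.16 (SE 0.26). Plagl1, another imprinted gene, which encodes a zinc finger factor, differed by -0.88 and, on a second probe set, by -0.06. Akip1, which binds protein kinase A, was at 3.12 and 2.34 at 2 h, against 4.92, 5.08 and 4.47, and 2 further probe sets of it differed by -1.17 and -0.21. Sgta, a cochaperone, was at 6.20 and 6.26 at 2 h, against 7.10, 7.25 and 7.05. Aldoa, the aldolase of glycolysis, was at 9.48 and 8.68 at 2 h, against 10.25, 10.33 and 10.03. It was the 1 nominally lower gene of 18 in its list, with 0 higher (3.86% and 3.45% over all genes). Abcb4, a phospholipid transporter, differed by -1.58 and Emc8, a subunit of the membrane protein insertion complex of the endoplasmic reticulum, by -1.24. On the higher side, Ptpn1, the tyrosine phosphatase PTP1B, differed by 1.33 on 1 probe set, at 7.83 and 8.05 against 6.57, 7.14 and 6.14, and by -0.03 to 0.94 on the other 4. Smim7, a small membrane protein, differed by 1.76, Il3, a cytokine of blood cell precursors, by 1.44 and Apoc3, a plasma apolipoprotein, by 1.68. Apoc3 differed by -0.43 on its other probe set and Il1rap, the interleukin-1 receptor accessory protein, by 1.45 on 1 probe set and -0.09 on the other. Gpr155 had 4.16 and 3.98 at 2 h with all 3 naive arrays at the lowest allowed level.

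Agreement between probe sets of a gene gave a check within the same arrays. Of 1091 genes with more than 1 tested probe set, 601 (55.1%) had all of them on the same side of 0, and of the 173 with a nominal probe set, 113 did (65.3%). At least 2 nominal probe sets in the higher direction were held by 6 genes: Camk2b, Camk2g, Gnao1, Gria1, Gsk3b and Ptpn1. For Camk2g, 1 of the 2 was tested only because it is high at 2 h. In the lower direction there were 13 such genes, of which Ttr, Enpp2, Igfbp2 and Prlr are on the choroid plexus list. Gsk3b, glycogen synthase kinase 3 beta, was named for this count after its values were seen; its probe sets differed by 0.80 and 0.67. Canx, the lectin chaperone calnexin, differed by -0.70 and -0.63 on its nominal probe sets and by -0.35, -0.47 and -0.01 on the others. Hspa4, a heat shock protein of the Hsp110 family, differed by -0.73 and -0.55. Probe sets of 1 gene read the same RNA extract, so a further probe set repeats the measurement and is not a further sample.

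Whether a level belonged to the 2 h arrays or to trained rats in general was asked in the same fit, by setting 2 h against the equal-weight mean of the 0, 3, 6, 12 and 24 h groups. This comparison uses the same 2 h arrays, so its values repeat part of the first. It called 10 of 6220 probe sets (0.161%) at an adjusted p under 0.05, 4 higher (0.0643%) and 6 lower (0.0965%) at 2 h, and 641 reached an unadjusted p under 0.05 (10.3%). The 6 lower ones were Bckdha (fell by 1.97, adjusted p = 0.0192 in limma), Akip1 (-1.98), Furin (-1.54), Ginm1 (-1.33), Stk25 (-1.29) and Rab6a (-1.05). Stk25 is a kinase of the Golgi, Rab6a a small GTPase of Golgi traffic and Ginm1 a membrane glycoprotein. On each of the 6, both 2 h arrays lay below all 11 other trained arrays and all 3 naive arrays. Rab6a, for example, was at 9.51 and 8.94 at 2 h, against 10.03 to 10.71 in the other trained groups and 10.06, 10.22 and 10.22 in naive arrays.

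The 4 higher ones were Camk2g, Adarb1, Gnao1 and an expressed sequence tag without a name, rc_H31859_at. Camk2g rose by 2.57 relative to the other trained groups (SE 0.44, adjusted p = 0.0381 in limma), on a probe set that lay between the lowest allowed level of 2.34 and 3.15 on their 11 arrays. Only the 2 h arrays of this probe set were over the intensity filter, so it was tested only because it is high at 2 h. Its call is therefore not read as support for a difference. Adarb1, the ADAR2 enzyme that edits glutamate receptor transcripts, was at 6.73 and 6.72 at 2 h, against 4.84 to 5.97 in the other trained groups and 5.82, 6.11 and 5.99 in naive arrays. It rose by 1.37 relative to the other trained groups (SE 0.23, adjusted p = 0.034 in limma), and its difference from naive was 0.75. Gnao1 rose by 0.99 on 1 probe set (adjusted p = 0.0415) and stood 0.85 higher on the other (adjusted p = 0.0574). The unnamed tag was at 8.50 and 8.61 at 2 h, against 7.30 to 7.98 in the other trained groups and 7.74, 7.87 and 7.82 in naive arrays. Just outside the threshold were Gria1 and Nos1ap, at 1.17 and 1.02 above the other trained groups, with both 2 h arrays above all 11 others. Emc8 was as near on the lower side, at -1.25, with both 2 h arrays below all 11 others. For Trh the 2 h arrays were above the other trained groups on 1 probe set, at 4.38 to 5.67, by 0.85, while its second probe set lay 1.13 lower at 2 h (a difference of -1.13). Ttr overlapped with them, at 6.06 to 12.16. Calls in this comparison depended on single arrays: fits without 1 array gave between 0 and 27.

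**Figure D5:**
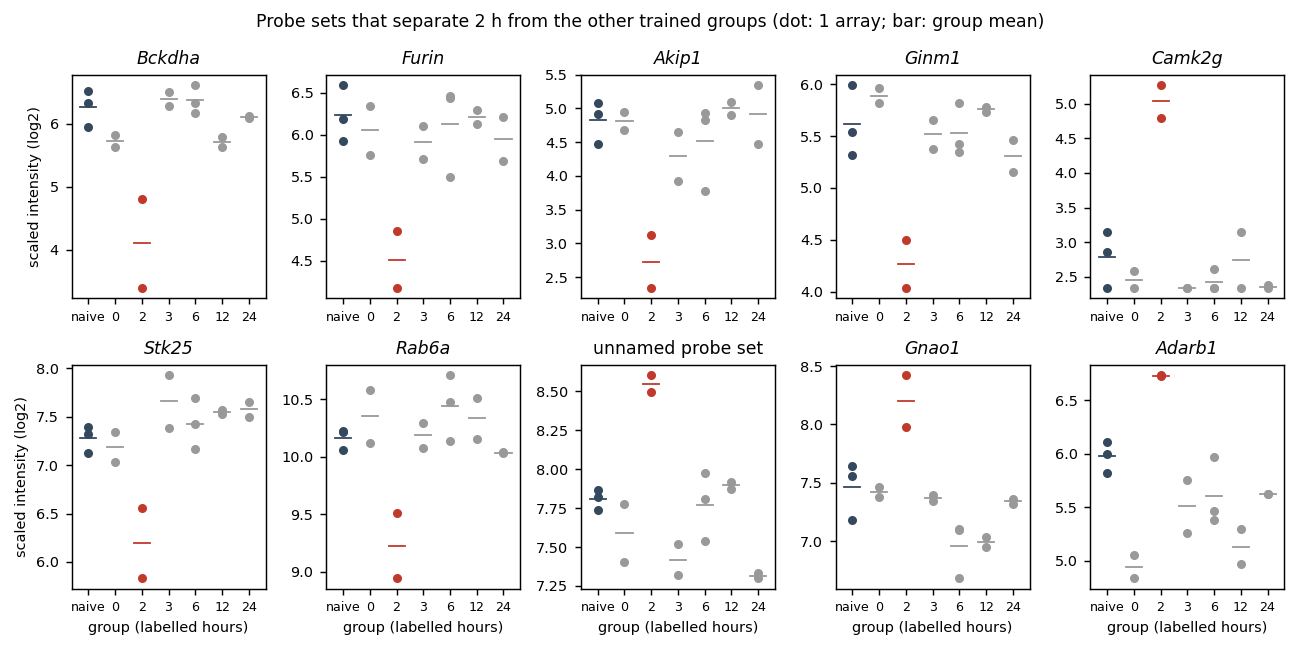
Level (scaled intensity, log2) of the 10 probe sets called between 2 h and the other trained groups, on every array of the naive group and of the groups labelled 0, 2, 3, 6, 12 and 24 h; each dot is 1 array and each bar a group mean. The 2 h arrays (red) lie outside the range of the 11 other trained arrays (grey) and of the 3 naive arrays (dark) in each panel, such as Adarb1 at 6.73 and 6.72.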

How the data were processed

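Total RNA of 16 dentate gyrus samples was measured on RGU34A arrays. The authors deposited 1 linear intensity per probe set and array; its software and scaling are named in none of the sources used here. From 8799 probe sets 59 controls were removed. Arrays were brought to one 2% trimmed mean (105.3) and floored at the 20th percentile of all values (5.05, or 2.34 in log2) before log2. Tested were 6220 probe sets over the 40th percentile of all values (16.9) on 2 or more arrays. limma 3.58.1 in R 4.3.3 was fitted over all 7 groups (lmFit, eBayes with a trend, 9 residual degrees of freedom), since 2 h and naive alone leave 3, and was tested on simulated data. P-values were adjusted by Benjamini-Hochberg over all 6220.

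Genes were named through the platform annotation, updated by gene identifier for 6985 probe sets: 7006 had 1 symbol, 308 several, 1426 are unnamed here. A gene list uses the probe set with the highest mean per gene. Named genes are those past the threshold, the 15 highest and 15 lowest by p with groups that do not overlap, their other probe sets, the 5 leading each way against the other trained groups, and list members. Members, lists (31) and rules were chosen with earlier results of these data known. Alternatives covered normalization, floor, filter, variance model, array weights, replicate block, fewer arrays, averaged probe sets and each array left out. Replicates 1 and 2 of 2 h and naive share a number. Over all 6220 probe sets, their replicate 1 minus replicate 2 differences correlated at -0.0442 between the groups. The choroid plexus list mean was nevertheless lower on replicate 1 than on the other replicates in both groups (-0.94 at 2 h, -0.86 in naive arrays). Apart from the replicate block, a shared replicate effect was not tested. The number of arrays limits precision.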

Additional observations from a re-analysis of the deposited data

Results flagged for a closer look

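10 probe sets differed between the step that 2 h arrays took from naive and the step that the mean of the other trained groups took, by the test of that difference in limma. The naive arrays cancel in this difference, so these are the same 10 calls as those given above against the other trained groups. The difference of these steps was -1.97 for Bckdha, -1.54 for Furin, -1.98 for Akip1, -1.33 for Ginm1, -1.29 for Stk25 and -1.05 for Rab6a. It was 2.57 for Camk2g, 1.37 for Adarb1, 0.99 for Gnao1 and 0.95 for the unnamed tag rc_H31859_at. The Camk2g probe set passed the filter only through the 2 h arrays. In each of the 10, both 2 h arrays lay outside the range of the 11 other trained arrays, which is no further test because the same separation selected them. Groups of 2 and 3 arrays are too small for a search for single outlying arrays.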

How the results depend on the processing

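Between 2 h and naive, 1 probe set passed; 0 passed under quantile normalization, with a replicate block, with the 2 h and naive arrays alone and with averaged probe sets, 2 with the floor at the 30th percentile and 8 with no filter. Without 1 array the count was 0 to 11, with 11 without naive replicate 1, 3 without 2 h replicate 1 and 1 without 2 h replicate 2. The 224 nominally higher and 253 lower became 124 and 342 with median centring, 459 higher with no filter, 141 higher with the stricter filter (60th percentile), and 139 higher and 168 lower with averaged probe sets; without 1 array the higher ranged from 94 (without 2 h replicate 2) to 266 and the lower from 173 to 311. Groups that do not overlap numbered 572 higher with that stricter filter, and 528 higher and 437 lower with averaged probe sets; without 1 array they numbered 953 to 1846 higher and 726 to 1698 lower. Against the other trained groups, 10 became 17 with quantile normalization, 17 with no filter, 3 with no variance trend, 51 with array weights, 1 with a replicate block, 0 with the trained arrays alone and 19 with averaged probe sets, and 0 to 27 without 1 array; the 641 at an unadjusted p under 0.05 became 407 with averaged probe sets, and 301 to 726 without 1 array. The differences that turned sign were Egr1 with median centring (-0.03), with a replicate block (-0.01), with averaged probe sets (-0.12), without naive replicate 2 (-0.10) and without 2 h replicate 1 (-0.05), Arc without naive replicate 1 (-0.02) and Fos without 2 h replicate 1 (-0.02). Without 1 array Egr1 ranged from -0.10 to 0.18, Arc from -0.02 to 0.18 and Fos from -0.02 to 0.44, and Fos was 0.69 with averaged probe sets. Of 2473 recomputed values of 89 named probe sets against naive, these 7 included, 2439 kept direction and call, most having no call to lose. The 20 lost calls were Bckdha's, with differences from -2.33 to -1.33 and adjusted p from 0.0619 to 0.444 there, and the 7 gained were 3 of Camk2g and 1 each of Ace, Enpp2, Prlr and Spint2, those 4 without naive replicate 1. Against the other trained groups, 180 of 306 recomputed values of 11 probe sets kept direction and call, 115 lost the call and 11 gained it; the call was lost under 17 of 27 alternatives for Akip1, 17 of 28 for Furin, 15 of 28 for Gnao1, 12 of 27 for Camk2g and 5 of 28 for Bckdha. The cause of these moves was not tested, apart from fewer arrays or more probe sets where a setting changes them.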

Other observations

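Probe sets built on expressed sequence tags whose names start with AA799 or AA800 leaned lower at 2 h, a grouping noticed after the values were seen. Of 381 tested, 27 were nominally lower (7.09%) and 5 nominally higher (1.31%), with a median difference of -0.12. Of 2156 tested on other tags, 80 were nominally lower (3.71%) and 73 higher (3.39%), with a median of 0.00. Ginm1, Rab6a, Stk25 and Akip1, 4 of the 6 probe sets called lower against the other trained groups, are in the AA799 range. The position of these probe sets on the array is not given in the files, and no cause was tested.

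Further genes had 2 nominally lower probe sets each and were named for that count. Mvk, mevalonate kinase of sterol synthesis, was at 3.97 and 3.33 at 2 h, against 5.80, 5.65 and 4.22, and differed by -1.57 and -1.19 on its 2 probe sets. Acot7, an acyl-CoA thioesterase of neurons, differed by -0.81 and -0.68 on 2 probe sets and by 0.04 on another. Rpp21, a subunit of ribonuclease P, was at 3.02 and 3.16 at 2 h, against 5.0, 4.96 and 5.06, and differed by -1.92 and -0.77. Dnm1l, the dynamin of mitochondrial fission, had 4 probe sets between -1.56 and -0.02.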
